A study of Mus musculus with 12 samples.

Results

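Extracellular proteases of the matrix metalloproteinase (MMP) and ADAMTS families, the protease-free ADAMTS-like proteins and the tissue inhibitors of metalloproteinases (TIMPs) were examined in mouse aorta. The set was chosen by symbol: every gene whose array annotation begins with Mmp and a digit or with Adamts, or reads Timp1 to Timp4, measured by a probe set that names that gene alone. It held 49 of the 22180 genes measured in this way, namely 22 MMP genes, 18 ADAMTS protease genes, 5 ADAMTS-like genes and all 4 TIMP genes. The tissue was aortic vessel from 12 CD-1 females, which are outbred, and each mouse was measured on 1 Affymetrix array. Of these, 6 mice had received CM-695, a compound that inhibits both histone deacetylase 6 and phosphodiesterase 9, intraperitoneally at 80 mg/kg, 2 h and again 1 h before they were killed. The other 6 had received saline vehicle, once by the design text, so injections may have differed in number between the groups. The labels used here state no age, collection time or array batch. The mice were perfused with buffered saline, and the vessel was taken without separating its layers.

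MMPs and ADAMTS proteases hold a catalytic zinc ion and cut collagens, elastin and proteoglycans of the vessel wall. TIMPs occupy that active site and block it, and TIMP3 binds the matrix and also inhibits several ADAMTS enzymes. ADAMTS-like proteins share the ancillary domains of ADAMTS proteases, lack the catalytic domain and attach to fibrillin microfibrils. In the arterial wall smooth muscle cells and adventitial fibroblasts make much of this machinery, while the collagenase MMP8 and the macrophage elastase come mainly from inflammatory cells.

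Values are log2 expression values as the authors deposited them, 1 per probe set and mouse, and a difference is always CM-695 minus vehicle on that scale. Array medians lay between 4.69 and 4.74. Without detection calls, weak and absent expression could not be distinguished at low values. Smooth muscle, fibroblast and endothelial markers (10, 11 and 10 genes) were all brighter than the median probe set, and so were 11 heart muscle, 8 adipocyte and 10 macrophage markers. Of other blood cell markers, 4 of 8 for lymphocytes and 1 of 10 for neutrophils were. Over all probe sets, 64 of 41345 (0.155%) passed the test (limma, Benjamini-Hochberg adjusted p under 0.05), and between 22 and 98 did when 1 mouse was left out. Leaving out any mouse except vehicle mouse 5 moved that count by over 1.5 times, and the count of 98 was without CM-695 mouse 2.

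A pair of inhibitor genes, Timp3 and Timp2, gave the strongest signals in vehicle aorta. They stood first and second among the 49 genes, at 9.82 ± 0.22 and 9.62 ± 0.26 (SD, n = 6), above 98.8% and 98.6% of all genes on the array. They were followed by the gelatinase gene Mmp2 at 8.47 ± 0.34, by Adamts1 at 8.34 ± 0.66 and by Adamts9 at 7.75 ± 0.34 (SD, n = 6 each). Mmp2 against Adamts1, and Timp3 against Timp2, lay within 1 SD of each other. Timp4 at 6.88 ± 0.19 and Timp1 at 5.19 ± 0.33 (SD, n = 6 each) stood 11th and 25th. Of the 49 genes, 30 were brighter than the median probe set of 4.70. These comprised all 4 TIMP and all 5 ADAMTS-like genes, 11 of 18 ADAMTS proteases and 10 of 22 MMPs. Probe sets bind with different efficiency, so this is an order of signals and not of transcript amounts.

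**Figure D1:**
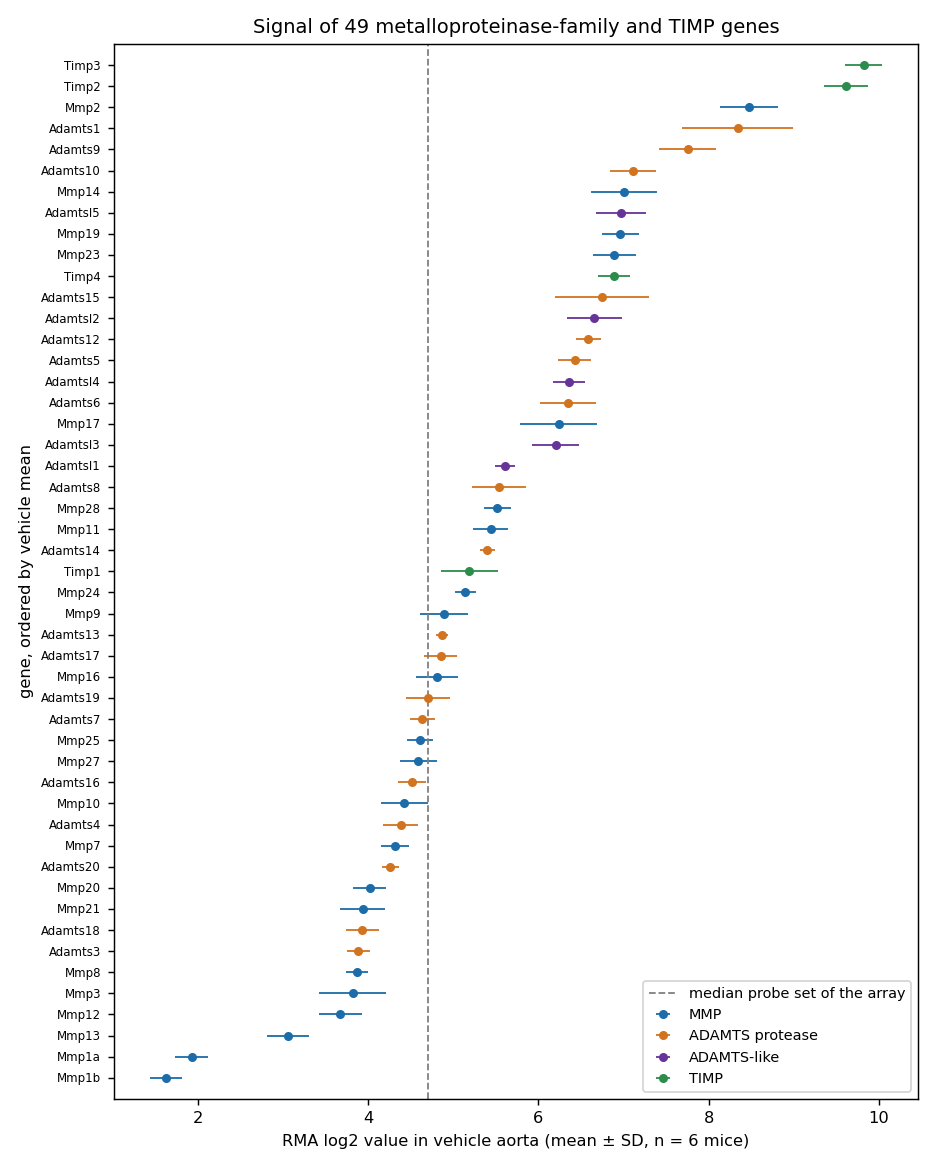
Mean RMA log2 value in 6 vehicle mice (horizontal axis, bars are SD) for the 49 genes, ordered by mean and coloured by class, with the median probe set at 4.70 as a dashed line. Timp3, Timp2, Mmp2, Adamts1 and Adamts9 lie at the top, and Mmp1a and Mmp1b at the bottom.

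Of the 19 members at or below the median probe set, 10 shared a genomic neighbourhood. Mmp13, Mmp12, Mmp1b, Mmp3, Mmp1a, Mmp10, Mmp8, Mmp27, Mmp20 and Mmp7 are 10 consecutive protein-coding genes on chromosome 9 in the RefSeq table, and among their products are the collagenases, the stromelysins MMP3 and MMP10, matrilysin, enamelysin and macrophage elastase. In vehicle aorta their means ran from 1.63 for Mmp1b to 4.59 for Mmp27, and those of the other 9 dim members from 3.88 for Adamts3 to 4.70 for Adamts19. Most of the 10 consecutive genes also shared short motifs upstream. RefSeq promoter windows (GRCm38.p6) covered 34 of the 49 genes, and the 250 bases before each start were searched on both strands for TGANTCA, the site bound by AP-1, and for TATAAA. The AP-1 letters were present in 8 of the 10 cluster genes and in 0 of the 24 other members with a window, against 6.75% of all 32851 windows. TATAAA was present in 7 of the 10 and in 3 of the 24, against 12.4% of all windows. It lay 29, 28 and 26 bases before the start in Mmp10, Mmp1a and Mmp7, which held another at 123. In Mmp3, Mmp13, Mmp1b and Mmp20 it lay 7, 16, 49 and 58 bases before the start. The 8 AP-1 matches are shown 5′ to 3′ on the strand of the gene with 17 bases on either side and the match in capitals, since these letters set the cluster apart from the other members in this search. They lie at chr9:7272462-7272502 (Mmp13), chr9:7347313-7347353 (Mmp12), chr9:7388096-7388136 (Mmp1b), chr9:7445759-7445799 (Mmp3), chr9:7464051-7464091 (Mmp1a), chr9:7502262-7502302 (Mmp10), chr9:7628119-7628159 (Mmp20) and chr9:7692010-7692050 (Mmp7), on the plus strand except for Mmp1b.

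Mmp13: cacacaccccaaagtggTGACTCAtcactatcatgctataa

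Mmp12: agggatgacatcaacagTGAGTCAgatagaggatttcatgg

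Mmp1b: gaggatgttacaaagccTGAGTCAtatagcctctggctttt

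Mmp3: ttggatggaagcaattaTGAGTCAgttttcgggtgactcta

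Mmp1a: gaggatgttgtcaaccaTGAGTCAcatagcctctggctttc

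Mmp10: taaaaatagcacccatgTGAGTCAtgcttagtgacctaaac

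Mmp20: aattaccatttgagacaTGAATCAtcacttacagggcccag

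Mmp7: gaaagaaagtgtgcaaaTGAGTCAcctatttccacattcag

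The variable base of the motif is a G except in Mmp13 and Mmp20. From the first base of the match to the start the distance ran from 35 bases in Mmp13 to 95 in Mmp20. A match describes letters only, and no factor binding was measured. After CM-695 the cluster genes had differences from -0.19 (Mmp27) to 0.27 (Mmp3), a median of 0.05, and adjusted p values from 0.607 to 0.999. Without CM-695 mouse 2, Mmp3 differed by 0.04.

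CM-695 aorta was then compared with vehicle aorta. None of the 49 genes passed the test over all probe sets (limma, 0 higher and 0 lower), where 0.0225% of all genes were called higher and 0.144% lower. At an unadjusted limma p under 0.05 there were 8 of 49, against 9.10% of all genes: 6 were lower after CM-695 (4.14% of all genes) and 2 were higher (4.96%). All 8 were among the 30 brighter members, and of all genes brighter than the median probe set 11.0% reached that p. Of those 30, 6 were lower at that p, against 5.58% of brighter genes, and 19 had a difference below 0, against 47.0%. No gene of the 49 had groups that did not overlap, against 1.08% of all genes. The median difference was -0.05 over the 49 genes and 0.02 over all genes, and 28 of the 49 lay below 0, against 44.7% of all genes. CM-695 mouse 2 had the highest treated value in 17 of the 30 brighter members and stood apart in smooth muscle markers. The same count was not made over all genes, so whether it is particular to these members was not tested. Without CM-695 mouse 2, 13 members were lower and 4 higher at an unadjusted p under 0.05. Without CM-695 mouse 1 or 4, or vehicle mouse 4 or 6, 1 member was higher at that p. The shares of all genes given above come from the fit with every mouse, and none was counted for fits without a mouse. Over all probe sets, 98 passed the adjusted test without CM-695 mouse 2, against 64 with every mouse. Whether the member counts without a mouse exceed the share of all genes was therefore not tested.

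**Figure D2:**
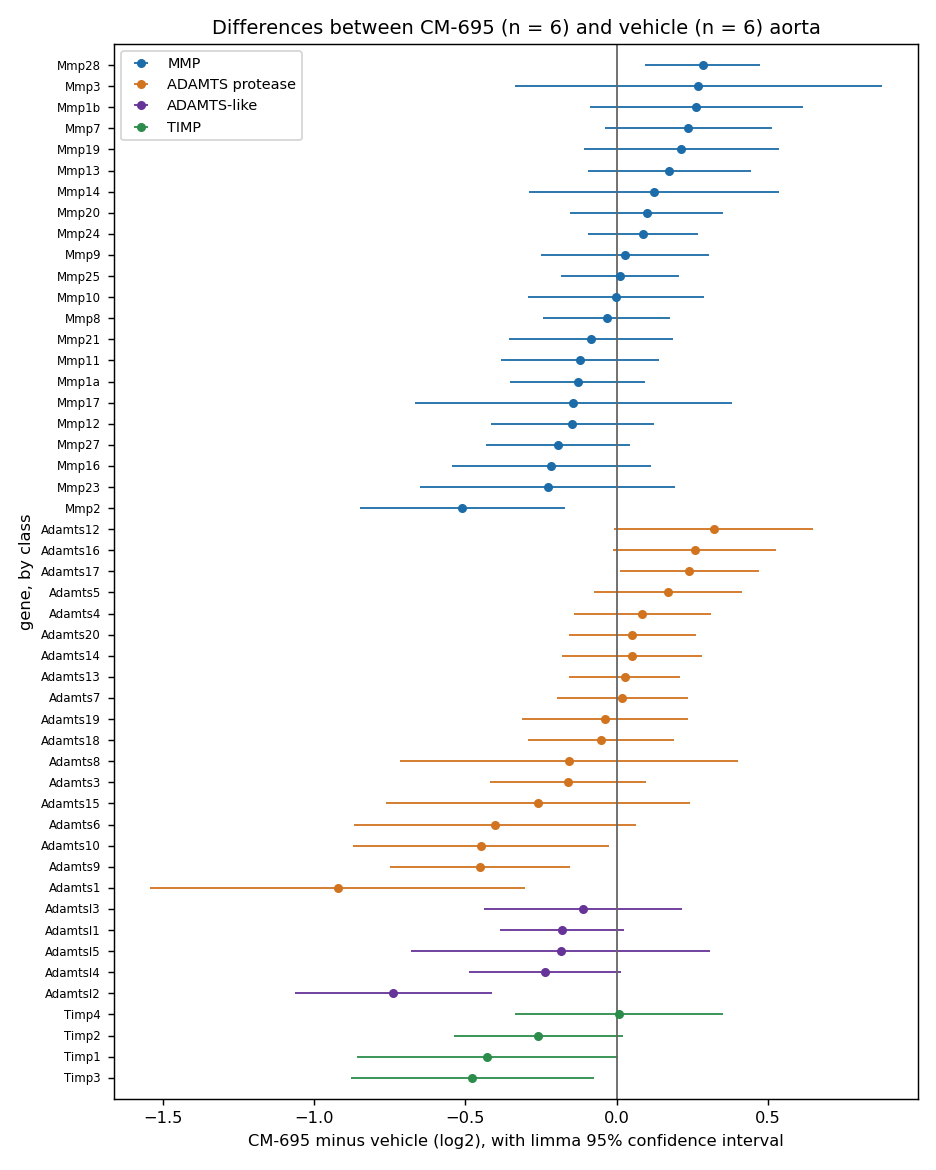
Difference between CM-695 and vehicle aorta on the log2 scale (horizontal axis) with the limma 95% confidence interval, for each of the 49 genes by class, 6 mice per group. Adamts1 and Adamtsl2 lie farthest to the left at -0.92 and -0.74, and no ADAMTS-like gene lies above 0.

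Among the ADAMTS-like genes, all 5 had lower means after CM-695, with a median of -0.18. Adamtsl2 (probe set 17368476), whose product binds fibrillin and the latent TGF-beta binding protein and is mutated in geleophysic dysplasia, was the member with the smallest p. It ran from 6.17 to 7.03 (median 6.72) in vehicle mice and from 5.71 to 6.30 (median 5.85) in CM-695 mice. Every treated mouse except mouse 2 was under the whole vehicle range. The difference was -0.74 (SE 0.15, 95% confidence interval -1.06 to -0.41), which is 1.67-fold lower, with limma adjusted p = 0.0983. That p was 0.0491 without CM-695 mouse 2 (difference -0.81) and 0.0463 when probe sets dimmer than the median were left out, and over the 19 alternatives it ran from 0.0463 to 0.206. Adamtsl5, the brightest of this class, differed by -0.18 (SE 0.23, adjusted p = 0.849). It ran from 6.54 to 7.29 (median 7.00) in vehicle mice and from 6.31 to 7.86 (median 6.62) in treated mice, where mouse 2 was the highest. Without that mouse the difference of Adamtsl5 was -0.40. Without CM-695 mouse 5 it was -0.09 and without vehicle mouse 3 -0.12. Adamtsl4, Adamtsl1 and Adamtsl3 differed by -0.24, -0.18 and -0.11, and Adamtsl3 by -0.21 without CM-695 mouse 2.

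Of the 7 ADAMTS proteases that cleave proteoglycans, the brightest pair had lower means after CM-695, and neither passed the test. Adamts1 (probe set 17331705), which cleaves aggrecan and versican, ran from 7.60 to 9.13 (median 8.33) in vehicle mice and from 6.95 to 8.15 (median 7.36) in treated mice. Vehicle mice 2, 3 and 4 lay at 8.77 to 9.13, above every treated mouse, and vehicle mice 1, 5 and 6 at 7.60 to 7.90. The difference of -0.92 (SE 0.29, 95% confidence interval -1.54 to -0.30) is 1.89-fold, with limma adjusted p = 0.326. Adamts9 (probe set 17469136), a versican-cleaving protease conserved from worms to mammals, ran from 7.31 to 8.20 (median 7.69) after vehicle and from 7.19 to 7.39 (median 7.32) after CM-695. Treated mice were much closer together (SD 0.078) than vehicle mice (SD 0.34), and 5 of 6 vehicle mice lay above all treated mice. The difference was -0.45 (SE 0.14, adjusted p = 0.315). The other members of the class, Adamts15 (-0.26), Adamts8 (-0.16), Adamts20 (0.05), Adamts4 (0.09) and Adamts5 (0.17), had adjusted p values of at least 0.688. Adamts8 differed by -0.39 (limma adjusted p = 0.450) without CM-695 mouse 2. Adamts4 and Adamts5 encode the main aggrecanases of cartilage.

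Other ADAMTS proteases lay on both sides of 0. Adamts10 (probe set 17336086), which binds fibrillin-1 and is mutated in Weill-Marchesani syndrome, ran from 6.77 to 7.51 (median 7.03) in vehicle mice and from 6.19 to 7.37 (median 6.64) in treated mice. Its difference was -0.45 (SE 0.20, adjusted p = 0.519), and -0.59 without CM-695 mouse 2, the highest of the treated mice. Adamts17 (probe set 17479041), a close relative of Adamts19, ran from 4.57 to 5.04 (median 4.87) in vehicle mice and from 4.88 to 5.30 (median 5.09) in treated mice. Its difference was 0.24 (SE 0.11, adjusted p = 0.524), near the median of the array, where 4 of 6 treated mice exceeded all vehicle mice. Adamts12, which cleaves cartilage oligomeric matrix protein, differed by 0.32 (SE 0.15, adjusted p = 0.557), and Adamts6 by -0.40 (SE 0.22, adjusted p = 0.607). Without CM-695 mouse 2 the differences of Adamts12 and Adamts6 were 0.36 and -0.58. Adamts13, whose product cuts von Willebrand factor in plasma and is made mainly in liver, was near the array median in both groups. It ran from 4.76 to 4.93 (median 4.90) after vehicle and from 4.78 to 5.16 (median 4.84) after CM-695, a difference of 0.03 (SE 0.085, 95% confidence interval -0.16 to 0.21, adjusted p = 0.953). The brightest gene of the procollagen N-propeptidases, Adamts14, ran from 5.27 to 5.51 (median 5.42) against 5.22 to 5.84 (median 5.42), with a difference of 0.05 (SE 0.11, adjusted p = 0.921).

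Upstream sequences were available for 6 of the 8 members with an unadjusted p under 0.05 and are shown because they are the members set apart by that p. They are the 250 bases before the RefSeq start (GRCm38.p6), 5′ to 3′ on the strand of the gene, with matches on either strand to 4 motifs in capitals: the AP-1 site TGANTCA, the TATA box TATAAA, the GC box GGGCGG, bound by SP1, and the E-box CACGTG, bound by the clock activators. The 4 with lower means in CM-695 aorta are at chr2:27079129-27079378 (Adamtsl2, plus strand), chr16:85803114-85803363 (Adamts1, minus), chr6:92943535-92943784 (Adamts9, minus) and chr10:86300162-86300411 (Timp3, plus).

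Adamtsl2: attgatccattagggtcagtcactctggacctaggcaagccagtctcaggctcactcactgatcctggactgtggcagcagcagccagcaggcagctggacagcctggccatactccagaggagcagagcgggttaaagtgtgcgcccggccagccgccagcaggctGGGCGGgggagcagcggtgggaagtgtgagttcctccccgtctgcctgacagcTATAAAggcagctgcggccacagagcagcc

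Adamts1: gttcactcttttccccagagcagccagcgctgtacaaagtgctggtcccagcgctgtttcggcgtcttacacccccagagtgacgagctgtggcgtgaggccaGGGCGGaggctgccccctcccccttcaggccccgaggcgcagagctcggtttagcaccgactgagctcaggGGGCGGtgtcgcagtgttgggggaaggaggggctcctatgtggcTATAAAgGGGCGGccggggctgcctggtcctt

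Adamts9: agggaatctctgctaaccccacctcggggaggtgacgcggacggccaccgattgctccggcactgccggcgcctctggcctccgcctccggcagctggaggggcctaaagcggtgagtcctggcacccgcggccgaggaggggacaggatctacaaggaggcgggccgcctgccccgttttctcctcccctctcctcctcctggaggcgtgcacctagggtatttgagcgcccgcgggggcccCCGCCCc

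Timp3: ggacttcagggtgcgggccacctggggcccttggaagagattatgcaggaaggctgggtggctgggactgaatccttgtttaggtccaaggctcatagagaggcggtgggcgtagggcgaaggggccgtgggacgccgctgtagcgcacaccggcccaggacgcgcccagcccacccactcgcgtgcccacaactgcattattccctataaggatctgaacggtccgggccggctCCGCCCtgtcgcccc

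The other 2, with higher means in CM-695 aorta, are at chr11:83463041-83463290 (Mmp28, minus strand) and chr7:66839485-66839734 (Adamts17, plus).

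Mmp28: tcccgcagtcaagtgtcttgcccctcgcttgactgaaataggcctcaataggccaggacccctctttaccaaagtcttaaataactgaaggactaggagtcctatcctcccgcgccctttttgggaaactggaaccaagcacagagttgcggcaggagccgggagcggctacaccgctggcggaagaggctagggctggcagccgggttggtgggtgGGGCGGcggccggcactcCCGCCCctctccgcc

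Adamts17: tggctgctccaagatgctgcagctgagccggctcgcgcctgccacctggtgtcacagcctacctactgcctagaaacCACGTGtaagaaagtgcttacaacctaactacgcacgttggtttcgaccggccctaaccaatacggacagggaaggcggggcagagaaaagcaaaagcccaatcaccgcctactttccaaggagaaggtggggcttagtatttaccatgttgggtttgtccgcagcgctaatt

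A GC box was present in all 4 of the first group and in Mmp28, and it is common: 18 of the 24 members outside the chromosome 9 cluster and 32.7% of all windows hold GGGCGG, against 0 of the 10 cluster genes. Adamts1 held 3 copies, Mmp28 2 copies, and Adamtsl2, Adamts9 and Timp3 1 copy each. TATAAA lay 32 bases before the start in Adamts1 and 30 bases before it in Adamtsl2. The single E-box among these 6 was in Adamts17, and CACGTG occurs in 6.02% of all windows. TGANTCA was in none of the 6, which says only that these letters are not in these windows.

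**Figure D3:**
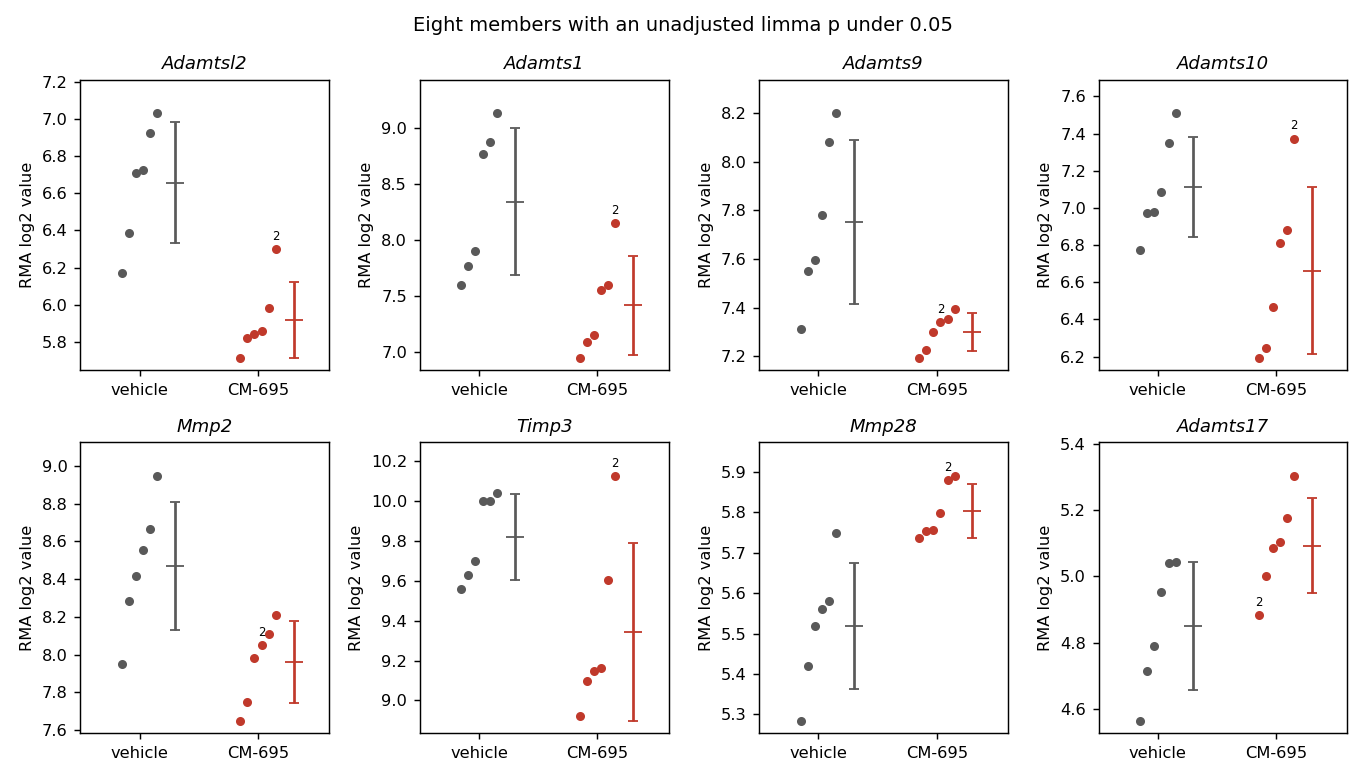
RMA log2 value of each mouse for the 8 members with an unadjusted limma p under 0.05, vehicle in grey and CM-695 in red, with mean and SD (n = 6) beside the points and CM-695 mouse 2 marked. In Adamtsl2 and Timp3 that mouse lies apart from most treated mice and within or above the vehicle range.

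Of the gelatinase genes, Mmp2 was bright and had a lower mean in CM-695 aorta without passing the test, while Mmp9 was near the array median in both groups. Mmp2 (probe set 17503825) encodes gelatinase A, which degrades basement membrane collagen and denatured collagen. It ran from 7.95 to 8.95 (median 8.48) in vehicle mice and from 7.65 to 8.21 (median 8.01) in treated mice. All vehicle mice but mouse 1 lay above every treated mouse. The difference was -0.51 (SE 0.16, 95% confidence interval -0.85 to -0.17, limma adjusted p = 0.315). Mmp9, gelatinase B, a product of neutrophils and macrophages, ran from 4.40 to 5.23 (median 4.94) after vehicle and from 4.76 to 5.06 (median 4.92) after CM-695. Its difference was 0.03 (SE 0.13, 95% confidence interval -0.25 to 0.31, adjusted p = 0.968).

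Mmp14, the membrane-anchored protease that activates proMMP2 together with TIMP2, ran from 6.47 to 7.48 (median 7.04) in vehicle mice. In treated mice it ran from 6.94 to 7.81 (median 7.01), with mouse 2 highest and the other 5 between 6.94 and 7.04. The difference was 0.12 (SE 0.19, 95% confidence interval -0.29 to 0.54, adjusted p = 0.885), and -0.01 without that mouse. It was 0.07, 0.22 and 0.02 without vehicle mouse 1, 3 or 5. Mmp28 (probe set 17266911), epilysin, was the MMP gene with the largest positive difference. It ran from 5.28 to 5.75 (median 5.54) after vehicle and from 5.74 to 5.89 (median 5.78) after CM-695, so that 5 of 6 treated mice exceeded all vehicle mice. The difference was 0.28 (SE 0.089, 95% confidence interval 0.09 to 0.48, adjusted p = 0.326). Mmp19, the brightest of the MMPs outside the named subclasses, ran from 6.69 to 7.21 (median 7.00) against 6.79 to 7.65 (median 7.17), a difference of 0.21 (SE 0.15, adjusted p = 0.707), and 0.12 without CM-695 mouse 3. Mmp11, or stromelysin 3, ran from 5.11 to 5.70 (median 5.46) against 5.01 to 5.59 (median 5.33), a difference of -0.12 (SE 0.12, adjusted p = 0.807). That of Mmp11 was -0.06 without CM-695 mouse 6, -0.07 without vehicle mouse 3 and -0.19 without vehicle mouse 4. Matrilysin (Mmp7) and the brightest collagenase gene, Mmp8, were both dim. Mmp7 ran from 4.07 to 4.54 (median 4.33) in vehicle mice and from 4.14 to 4.81 (median 4.60) in treated mice, a difference of 0.24 (SE 0.13, adjusted p = 0.607). Mmp8 ran from 3.71 to 4.10 (median 3.87) against 3.66 to 4.13 (median 3.81), a difference of -0.03 (SE 0.097, adjusted p = 0.950).

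Of the inhibitors, Timp1, Timp2 and Timp3 had lower means after CM-695 and Timp4 did not. Timp3 (probe set 17236182) ran from 9.56 to 10.04 (median 9.85) in vehicle mice and from 8.92 to 10.12 (median 9.16) in treated mice. Of the treated mice, 4 lay between 8.92 and 9.16, below all vehicle mice, and mouse 2 lay above them all. The difference was -0.48 (SE 0.19, 95% confidence interval -0.88 to -0.08, limma adjusted p = 0.458), and -0.63 (SE 0.14, adjusted p = 0.113) without mouse 2. Timp2, which inhibits MMPs broadly, ran from 9.23 to 10.03 (median 9.61) against 9.23 to 9.70 (median 9.28), a difference of -0.26 (SE 0.13, adjusted p = 0.581). Timp1, an inducible secreted inhibitor, ran from 4.86 to 5.79 (median 5.06) against 4.26 to 5.43 (median 4.74), a difference of -0.43 (SE 0.20, adjusted p = 0.551). Without CM-695 mouse 2 the differences of Timp1, Timp2 and Timp4 were -0.56, -0.33 and 0.11. Timp4, found mainly in heart, vessels and fat, ran from 6.75 to 7.18 (median 6.78) against 6.37 to 7.38 (median 6.90). Its difference was 0.01 (SE 0.16, 95% confidence interval -0.34 to 0.35, adjusted p = 0.993), and the sign turned in 8 of 19 alternatives, centring the arrays on their medians among them.

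**Figure D4:**
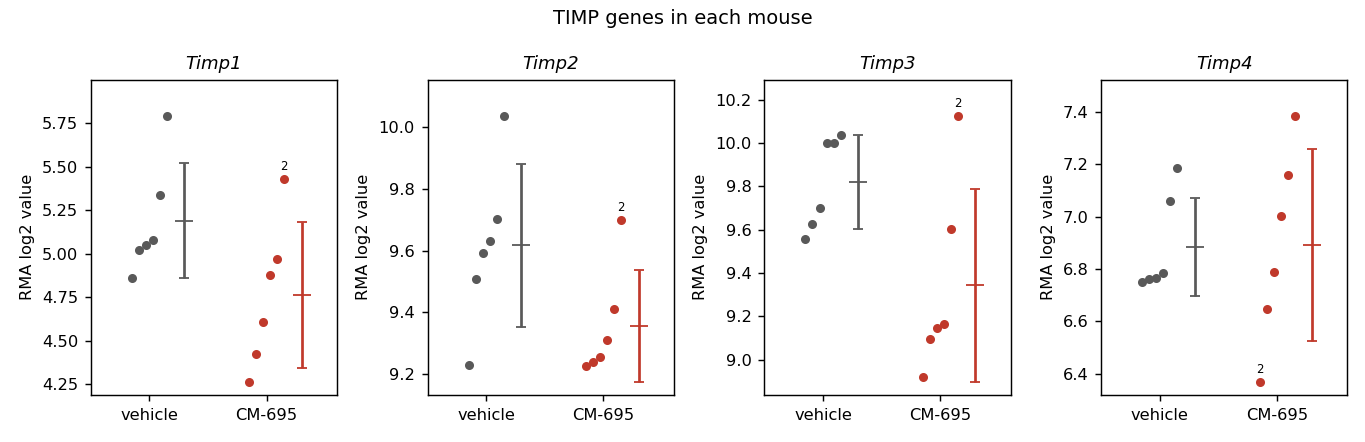
RMA log2 value of the 4 TIMP genes in each mouse, vehicle in grey and CM-695 in red, with mean and SD (n = 6) and CM-695 mouse 2 marked. Of 6 treated mice, 4 lie below all vehicle mice for Timp3, and for Timp4 the treated mice spread on both sides of the vehicle mice.

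Inhibitors and proteases were then set side by side. The median difference was -0.34 over the 4 TIMP genes (3 below 0) and 0.01 over the 40 protease genes (20 below 0), with 0.01 over the 22 MMPs and -0.01 over the 18 ADAMTS proteases. With dim probe sets left out, the median of the ADAMTS proteases was -0.16 over 11 genes. The mean of the TIMP genes minus the mean of the protease genes in the same mouse was 2.74 ± 0.14 after vehicle (2.56 to 2.92) and 2.49 ± 0.17 after CM-695 (2.26 to 2.69; SD, n = 6 each). The groups overlapped, and the difference of -0.25 is given without a test. It stayed between -0.29 and -0.18 in all 19 alternatives. Of the 40 protease genes, 21 were brighter than the median probe set. Over those 21 and the 4 inhibitors, the same contrast was -0.18. These means weigh each gene equally and say nothing of protease or inhibitor activity.

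Some members varied between mice together with smooth muscle or fibroblast markers. In bulk tissue, fewer cells of a type and less RNA per cell cannot be told apart. The mean of 10 smooth muscle markers ran from 8.88 to 9.99 in vehicle mice and from 8.42 to 10.59 in treated mice, with CM-695 mouse 2 highest. Of these 10 markers, 9 had lower means after CM-695, with a median difference of -0.25 and 0 at an unadjusted limma p under 0.05. Leaving out CM-695 mouse 2 lowers the treated mean of these markers further. Fibroblast markers ran from 8.18 to 8.88 against 8.19 to 8.52 (all 11 with lower means after CM-695). Their median difference was -0.34, and 4 of the 11 were lower at an unadjusted limma p under 0.05, against 5.58% of brighter genes. None of them passed the adjusted test. Heart muscle markers ran from 7.53 to 9.61 against 6.02 to 8.71 (11 of 11 lower). Pearson's r was taken between each member and these means over the 12 mice, after subtracting group means, as a description with no test. With smooth muscle markers it exceeded 0.8 for 11 of the 49 genes, in order Adamts8, Adamts6, Adamts10, Timp3, Mmp17, Mmp23, Adamtsl5, Adamts1, Mmp3, Mmp14 and Adamts15, and for 8 genes without CM-695 mouse 2. All but Mmp3, 10 genes, are among the 30 brighter members. Of all 12978 genes brighter than the median probe set, 1038 exceeded 0.8 with every mouse. No such count was made without CM-695 mouse 2. The values were 0.96 for Adamts8, 0.93 for Timp3 and 0.89 for Adamts1, or 0.93, 0.86 and 0.91 without that mouse. Adamtsl2 lay just under 0.8, at 0.79, or 0.72 without that mouse. Mmp19 ran opposite, at -0.89, and Timp4 was at -0.51. Over the 30 brighter members the median r was 0.68 with smooth muscle markers and 0.23 with fibroblast markers. Over the 12978 brighter genes these medians were -0.05 and 0.02. Mmp2 was the only member above 0.8 with fibroblast markers, at 0.93, as were 73 of the 12978 brighter genes, while its r with smooth muscle markers was 0.23. With heart muscle markers r ran from -0.59 (Adamts3) to 0.59 (Mmp1b) over the 49 genes. It was 0.01 for Timp3, -0.24 for Adamtsl2 and -0.45 for Mmp2.

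**Figure D5:**
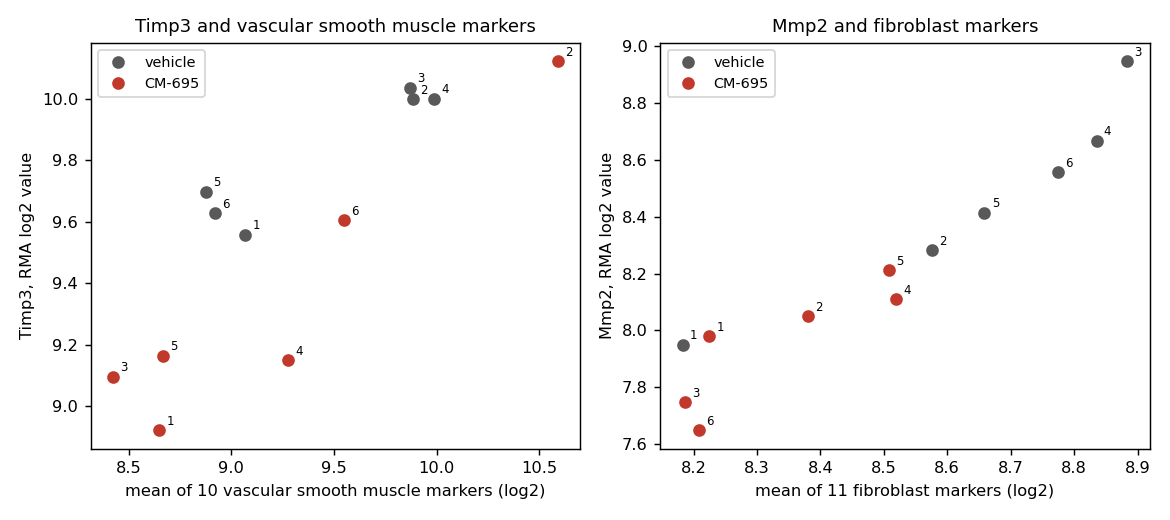
Timp3 against the mean of 10 smooth muscle markers (left) and Mmp2 against the mean of 11 fibroblast markers (right), both in log2, 1 numbered point per mouse, vehicle in grey and CM-695 in red. In the left panel CM-695 mouse 2 lies at the top right, and CM-695 mouse 4 lies below vehicle mice 1, 5 and 6 at a higher smooth muscle mean. Mmp2 is plotted against the fibroblast mean, where r was 0.93.

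CM-695 mice 1, 3 and 5 had Timp3 values of 8.92 to 9.16 at smooth muscle means of 8.42 to 8.67, and CM-695 mice 4, 6 and 2 had 9.15, 9.60 and 10.12 at 9.28, 9.55 and 10.59. Vehicle mice 1, 5 and 6 had Timp3 values of 9.56 to 9.70 at smooth muscle means of 8.88 to 9.07, and vehicle mice 2, 3 and 4 had 10.00 to 10.04 at 9.87 to 9.99. CM-695 mice 4 and 6 thus lay above vehicle mice 1, 5 and 6 in smooth muscle markers, with Timp3 below them all in mouse 4 and within their range in mouse 6. The part of marker levels in these differences was not tested. Among 12977 other genes brighter than the median probe set, those most like Timp3 by the same r were Ccdc3, Creb3l2, Efhd1, Fblim1 and Sod3, at 0.97 to 0.98. Those most like Mmp2 were Lbr at 0.97, Serpinf1 and Dpt at 0.96 and 0.95, and Tgfbi and Clec3b at 0.93 and 0.92. Dpt and Clec3b are themselves in the fibroblast list.

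Activators, substrates and relatives of these proteases were examined from 4 lists. In none did a gene pass the test over all probe sets (limma, 0 of 58 measured genes). The counts at an unadjusted p under 0.05 stand beside 4.14% lower and 4.96% higher over all genes, and counts of lower means beside 44.7%. Of 11 ADAM genes 6 had lower means, of 16 activators and regulators 11, of 20 substrates 15 and of 11 factor genes 6. Of 11 ADAM genes, whose products are membrane proteins related to ADAMTS, 1 was higher at an unadjusted p under 0.05, Adam19 (0.26, SE 0.082, adjusted p = 0.343). Next by p came Adam28 (0.18, SE 0.11). Of 16 activators and cell surface regulators, Furin, the convertase that activates membrane-type MMPs, was higher (0.34, SE 0.14, adjusted p = 0.463) and Lrp1, the endocytic receptor that clears MMPs, was lower (-0.32, SE 0.15, adjusted p = 0.538) at that unadjusted p. The 20 substrates and matrix partners had a median of -0.22. At that unadjusted p, 3 of them were lower and 1, the laminin gene Lama4 (0.29, SE 0.098), was higher. Vcan, the proteoglycan substrate of Adamts1 and Adamts9, went from 7.05 ± 0.23 to 6.34 ± 0.58 (SD, n = 6 each), adjusted p = 0.347. The 11 factor genes were those of AP-1 and ETS factors and Runx1. Of these, Fosb (-0.58, SE 0.16, adjusted p = 0.245) and Junb (-0.24, SE 0.10, adjusted p = 0.509) were lower at that unadjusted p.

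The remaining 29 members, those not given with values in each group above, had differences between -0.40 (Adamts6) and 0.32 (Adamts12), a median of -0.05 and adjusted p values between 0.557 and 0.999. They included Mmp16, Mmp17, Mmp24 and Mmp25, membrane-anchored like Mmp14, and Mmp23, a type II membrane protein. Without CM-695 mouse 2 the differences of Mmp17 and Mmp23 moved from -0.14 to -0.32 and from -0.23 to -0.40. Of the 5 membrane-type genes measured, Mmp14 included, 3 had higher and 2 lower means, with a median of 0.01. Mmp15 and Adamts2 were not analysed here, since no probe set names either of them alone.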

How the data were processed

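Total RNA from 12 mouse aortas (6 vehicle, 6 CM-695) was measured on Affymetrix arrays. The authors deposited log2 values per probe set, made by RMA per the submitters' processing notes, and these were used as deposited. Software, version and genome build: not given in the sources used here. RMA equalises arrays, so a shift of all genes would not be seen. Symbols came from the platform annotation: 23521 probe sets name 1 gene, 1814 several and 16010 none. For genes with several probe sets the one with the highest mean over the 12 arrays was kept. Groups were compared with limma 3.58.1 in R 4.3.3 on all 41345 probe sets, Benjamini-Hochberg adjusted, after the script was tested on simulated data. The number of arrays limits the precision. Each array is 1 mouse by its label.

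Genes given with full values were the TIMPs, Mmp2, Mmp9, Mmp14 and Adamts13, members with an unadjusted p under 0.05, and the brightest member of each of the 12 role classes. Of the 4 pathway lists the 2 genes with the smallest p were named, and 5 genes were named for likeness to Timp3 and to Mmp2. The members and lists were chosen with earlier results of these data known. Promoter windows were RefSeq sequences (GRCm38.p6). Alternatives were other normalizations, a filter on dim probe sets, array weights, other variance estimates, the replicate number as a block, means of probe sets and leaving out each mouse.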

Additional observations from a re-analysis of the deposited data

Results flagged for a closer look

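For 6 members, 1 mouse lay far from the other 5 of its group by Dixon's criterion (gap over range above 0.625 for 6 samples). With 98 groups examined, about 4.9 such cases arise by chance at 1 in 20. CM-695 mouse 2 accounted for 3 of them: Mmp14 at 7.81 (others 6.94 to 7.04), Adamtsl5 at 7.86 (others 6.31 to 6.76) and Mmp23 at 7.55 (others 6.33 to 6.66). That mouse also had the highest mean of smooth muscle markers, 10.59. CM-695 mouse 4 had Adamts3 at 4.21, where the others lay between 3.53 and 3.77. Vehicle mouse 5 had Adamts12 at 6.31 (others 6.57 to 6.69), and vehicle mouse 6 had Adamts20 at 4.06 (others 4.26 to 4.34).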

How the results depend on the processing

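Over 19 alternatives, 361 of 378 differences of the 20 members given with full values kept their direction and their side of the threshold, 15 changed sign and 2 passed it. Both that passed were Adamtsl2, so the count of members lower was 1 with dim probe sets left out and 0 to 1 without single mice. No member was called higher in any alternative. Probe sets past the threshold numbered 64, 116 with dim ones left out, 15 with the replicate block and 22 to 98 without single mice. The ADAMTS protease median was -0.16 with dim probe sets left out, over 11 genes. Counts of members with an unadjusted p under 0.05 were, for lower, 10 with array weights and 4 to 13 without single mice. For higher they were 4 with array weights, 1 with arrays centred, 1 with the replicate block and 1 to 4 without single mice. Shares of all genes at that p were counted for the main comparison only, so these counts have no such share beside them.

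Changes of sign occurred in 6 members with differences near 0: Timp4 (-0.0010 with arrays centred, -0.0902 to 0.1125 without single mice), Adamts13 (-0.0266 to 0.0487), Adamts14 (-0.0259 to 0.0972), Mmp14 (-0.0119 to 0.2191), Mmp8 (-0.0901 to 0.0135) and Mmp9 (-0.0703 to 0.0958), all without single mice. The cause was not tested. Mmp7 and Mmp8 have no value with dim probe sets left out. Between same-numbered mice the correlations of deviations ran from -0.10 to 0.10, and 1 of 6 vehicle mice matched its own number best. That gave no sign of pairing by number, but such a check cannot exclude a shared processing step. Counts of unadjusted p and the TIMP contrast were added after the data were seen. Dim probe sets limit what can be read of the chromosome 9 genes.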

Other observations

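For 4 members a further probe set named the same gene. Those of Adamts14 (0.08 against 0.05) and Adamts8 (-0.06 against -0.16) had the sign of the probe set used. Those of Mmp7 (-0.10, SE 0.13, against 0.24) and Mmp11 (0.01, SE 0.12, against -0.12) had the opposite sign, and limma adjusted p was 0.842 and 0.984. The sign of Mmp7 and Mmp11 therefore depends on the probe set. A probe set shared by Mmp24 and another gene was not used and differed by -0.08 (SE 0.12, adjusted p = 0.884).

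Among markers of other cells, endothelial genes had a median difference of 0.04, macrophage genes -0.04, adipocyte genes 0.01, lymphocyte genes 0.15, neutrophil genes 0.01 and nerve genes -0.02. Heart muscle genes had a median of -1.68, with 10 of 11 lower at an unadjusted p under 0.05 and 0 past the adjusted threshold (limma).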
